A study of Mus musculus with 13 samples.

Results

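Genes for voltage-gated calcium channels, voltage-gated sodium channels and HCN channels were followed in excitatory neurons of the mouse claustrum. All genes whose symbol begins with Cacna, Cacnb or Cacng, or is Scn or Hcn with a digit after it, were taken, which gave 42 of the 23427 genes in the count tables. Calcium channels open on depolarization and admit the calcium that triggers transmitter release, dendritic spikes and transcription. Sodium channels carry the rising phase of the action potential, and HCN channels, opened by hyperpolarization, pass a cation current that sets resting potential and dendritic integration. Each channel has a pore subunit, and auxiliary subunits set its trafficking and gating.

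Single cells were picked by hand from microdissected claustrum of 4 mature male C57BL/6 mice, a wild-type strain, and processed in 13 plates. In 1 mouse (WT mouse, no projection; 3 plates), called the blindly sampled mouse here, rAAV2-retro-CAG-GFP, a virus taken up by axon terminals, was injected in the anterior cingulate cortex to guide the dissection, and cells were picked without regard to GFP. In the other 3 (projection; 10 plates), called projection mice 1 to 3, green retrobeads were injected in the lateral entorhinal cortex (LEC) and red retrobeads in the retrosplenial cortex (RSC). Retrobeads are fluorescent microspheres carried back to the cell body, and they served to find the claustrum and to pick LEC, RSC and Unlabeled cells. Every mouse carried a tracer, and a cell without beads may still project to an injected area.

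Of 1112 cells, the 1011 with at least 1 count of Snap25, a neuronal vesicle fusion gene, and of Slc17a7, a vesicular glutamate transporter, were kept. These were 238 cells of the blindly sampled mouse and 224, 220 and 329 of projection mice 1, 2 and 3. Cells were divided into 3 classes by 2 genes that are not channels. Synpr-high cells had at least 200 CPM (counts of the gene scaled to a total of 1e+06 per cell) of Synpr (113, 88, 88 and 149 cells, in the same order of mice). Slc30a3-high cells had less Synpr and at least 20 CPM of Slc30a3 (79, 68, 88 and 124 cells). The remaining cells numbered 46, 68, 44 and 56. As the limits are in CPM, fewer counts reach them in a cell of lower depth, as in the blindly sampled mouse (below). A cell under the Synpr limit in which Slc30a3 was not detected counts among the remaining cells. Counts were summed per mouse and class, so that the mouse was the replicate, and the sums held from 1557282 to 27601436 counts. Levels are CPM of these sums, with totals scaled by TMM, a factor of 0.945 to 1.03 that evens out composition, and those of single plates are not scaled. The median cell had 26023 counts in the blindly sampled mouse and 138535 to 154262 in the projection mice. The plates were pooled on different flow cells, and the paper does not say which plates were on which.

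The classes were checked against marker genes. The summed level of 5 genes of the claustrum core (Gnb4, Lxn, Gfra1, Nr4a2, Slc17a6) was 4257 to 4813 CPM in Synpr-high cells and at most 775 CPM in the other classes. The summed level of 4 genes of the claustrum shell was 939 to 2215 CPM in Slc30a3-high cells, and it was as high, 629 to 2269 CPM, in the remaining cells, which alone also held 7 deep cortical genes at 370.5 to 510 CPM (at most 58.0 CPM elsewhere). The remaining cells are therefore described by their rule and not by a cell type. Microglial, endothelial and astrocyte genes summed to at most 5.25 CPM in any class, and those of oligodendrocyte precursors to at most 17.9 CPM. The summed interneuron genes reached 143 CPM in Synpr-high cells and 123 CPM in remaining cells, both in projection mouse 3, and 95.6 CPM in Synpr-high cells of projection mouse 1. Oligodendrocyte genes summed to 1036 and 716 CPM in Slc30a3-high cells of projection mice 1 and 2, against 26.4 to 341 CPM in the other sums. Leaving out the 4 cells with counts of both Gad1 and Gad2 left the number of channel genes past the threshold as it was in each of the 6 comparisons made. No cell name was shared between the 2 count tables.

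Sequence upstream of the start is shown for Cacna1b and Cacnb3, a pore and an auxiliary subunit of the same calcium channels, because both were higher in Synpr-high cells than in the remaining cells (below) and their windows overlapped no annotated exon. Each line holds the 250 bases before the start in the RefSeq promoter table of GRCm38.p6. Capitals mark the GC box (GGGCGG) and the CCAAT box (CCAAT) on either strand.
Cacna1b, chr2:24763153-24763402, minus strand: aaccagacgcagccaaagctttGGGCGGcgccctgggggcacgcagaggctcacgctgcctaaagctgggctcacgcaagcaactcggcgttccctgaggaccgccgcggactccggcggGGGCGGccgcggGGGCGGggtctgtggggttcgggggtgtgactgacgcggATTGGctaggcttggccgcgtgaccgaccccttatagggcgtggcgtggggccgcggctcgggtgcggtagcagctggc
Cacnb3, chr15:98632078-98632327, plus strand, the first of 2 starts: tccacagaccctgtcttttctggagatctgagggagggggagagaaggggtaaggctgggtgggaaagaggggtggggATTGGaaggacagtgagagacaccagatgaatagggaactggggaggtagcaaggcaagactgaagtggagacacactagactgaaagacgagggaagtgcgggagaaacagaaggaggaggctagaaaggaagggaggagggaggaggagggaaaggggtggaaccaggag
The Cacna1b window held 3 GC boxes and 29 CpG and was 72.0% G and C. The Cacnb3 window held no GC box and 2 CpG and was 56.0% G and C. Over 27025 genes, the median window held 6 CpG, 32.9% of windows held a GC box and 34.5% held a CCAAT box, which both windows here held once. TATAAA, searched on both strands, was in neither window and in 3504 of all windows.

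Of the 42 genes, 30 had enough counts to be tested over the classes. The other 12 had 2 to 90 counts in all 1011 cells, in 1 to 25 cells each. They included Cacna1s and Cacna1f, pore subunits of skeletal muscle and retina, the auxiliary Cacna2d2 and Cacna2d4, Cacng1, Cacng6, Cacng7 and Cacng8, the sodium channel genes Scn10a and Scn11a, known from sensory neurons, and Hcn4, the main HCN gene of the cardiac pacemaker. A count is a read at the 3′ end of a transcript, so levels are compared between groups and not between genes.

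The class comparisons asked which channel genes separate the 3 cell classes. Synpr-high cells had almost no Cacna1a or Cacna1h, with 16.9-fold and 18.9-fold lower mean CPM than Slc30a3-high cells. With these, 3 of the 30 tested genes were past the threshold (edgeR quasi-likelihood test, adjusted p under 0.05), where 6.71% of all 13104 genes tested were (3.28% higher and 3.43% lower). Against the remaining cells 7 of 30 were past it, where 8.97% of all genes were (4.24% higher and 4.74% lower). Cacna1a and Cacna1h were again lower, and Cacna1b, Cacnb3, Cacnb4 and Cacng3 were higher. Between Slc30a3-high and remaining cells 0 of 30 were past it (0.778% of all genes, 0.298% higher and 0.481% lower). An unadjusted p under 0.05 was found for 5 of 30, and for 1321 of all 13104 genes, and DESeq2 called 2 of the channel genes. The median log2 difference of the 30 genes was 0.24, 0.01 and -0.03 in these 3 comparisons, against 0.01, 0.01 and 0.00 for all genes tested.

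**Figure D1:**
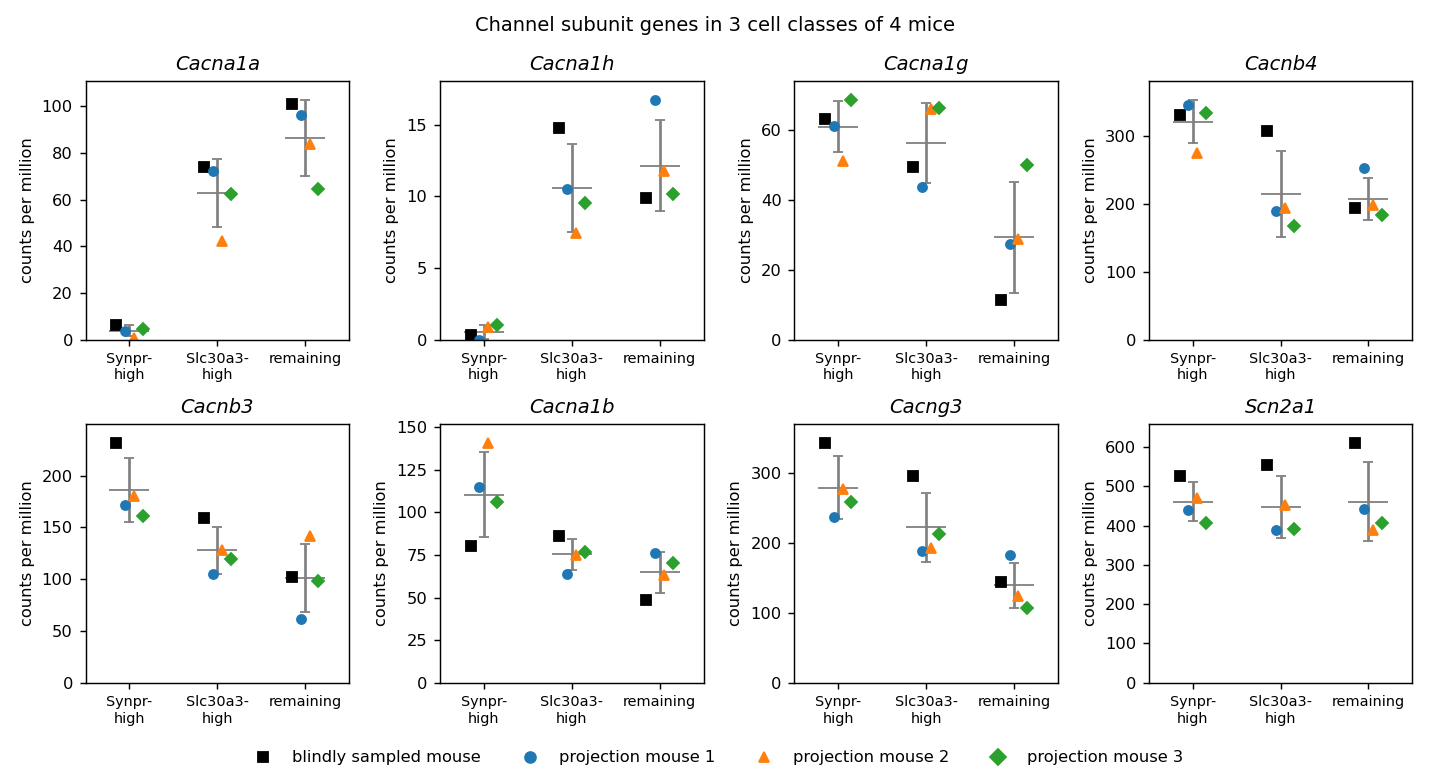
Levels of 8 channel genes (CPM, vertical axis) in Synpr-high, Slc30a3-high and remaining cells. Each point is the sum over the cells of 1 mouse, the grey bar the mean and the whiskers 1 SD over 4 mice. Synpr-high points lie apart from both other classes for Cacna1a and Cacna1h, while the classes overlap for Scn2a1.

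Among the pore subunits of the presynaptic calcium channels, Cacna1a encodes the P/Q-type channel, a main trigger of fast transmitter release. Its level in Synpr-high cells was 6.14, 3.48, 0.49 and 4.71 CPM in the blindly sampled mouse and in projection mice 1, 2 and 3. In Slc30a3-high cells it was 73.9, 72.3, 42.3 and 62.2 CPM, and in the remaining cells 101, 96.0, 84.0 and 64.7 CPM. Every Synpr-high value lay under every value of the other classes. The log2 difference was -4.15 ± 0.49 (SE) against Slc30a3-high cells (edgeR adjusted p = 0.000139) and -4.61 ± 0.50 against the remaining cells (adjusted p = 4.54e-05). The same held within plates, where Cacna1a was lower in Synpr-high cells in 12 of 12 plates, at 0 to 11.2 CPM against 30.8 to 110 CPM in Slc30a3-high cells. An annotated antisense transcript, Gm16183, overlaps a Cacna1a exon, and the use of strand in counting is not given in the sources used here.

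The low Cacna1a level of Synpr-high cells came from few cells. A count of Cacna1a was found in 4 of 113, 7 of 88, 3 of 88 and 11 of 149 Synpr-high cells, in the order of mice above. With every cell thinned to 20000 counts, which leaves out 67 cells of the blindly sampled mouse and 17 of the others, 1.97% of 406 Synpr-high cells had one (95% exact interval, 0.854 to 3.85%, counting error only). The share was 45.0% of 331 Slc30a3-high cells and 54.2% of 190 remaining cells. In projection mouse 3, 95 of the 129 Cacna1a counts of Synpr-high cells came from 2 cells that also had counts of Gad1 and Gad2, 2 genes for the synthesis of GABA, and without them the level there was 1.26 CPM. Scn2a1, a pore gene of sodium channels, was found in 99.0% of the same thinned Synpr-high cells and 97.6% of the Slc30a3-high cells.

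**Figure D2:**
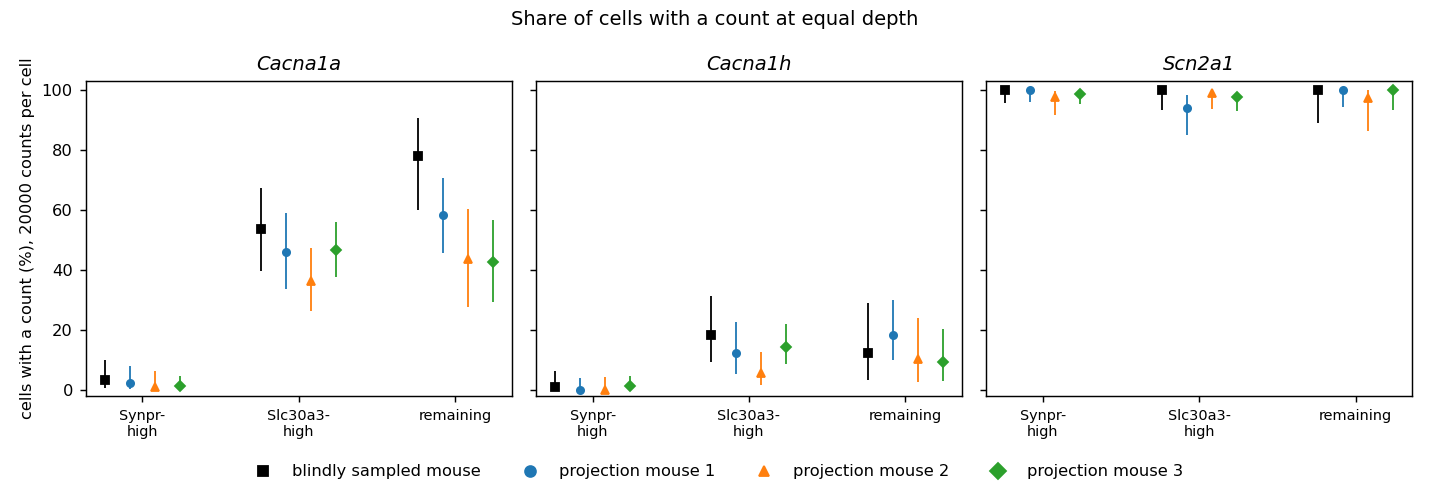
Percentage of cells with at least 1 count (vertical axis) after thinning each cell to 20000 counts, per class and mouse, with 95% exact binomial intervals. Cacna1a and Cacna1h were seen in at most 3.53% and 1.34% of Synpr-high cells of any mouse, and Scn2a1 in over 93% of cells in every group.

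Cacna1b, the pore gene of the N-type channel that also serves transmitter release, went the other way. Its level in Synpr-high cells was 80.1, 115, 141 and 106 CPM, against 48.8, 76.5, 63.1 and 70.6 CPM in the remaining cells and 86.0, 64.0, 74.9 and 76.6 CPM in Slc30a3-high cells. Synpr-high values lay above all those of the remaining cells, but the blindly sampled mouse overlapped the Slc30a3-high values. The log2 difference was 0.77 ± 0.19 against the remaining cells (edgeR adjusted p = 0.0221) and 0.56 ± 0.19 against Slc30a3-high cells (adjusted p = 0.114). The first was not past the threshold without projection mouse 1, 2 or 3 (log2 0.84, 0.62 and 0.83, adjusted p = 0.0779, 0.177 and 0.116), and the second passed it without the blindly sampled mouse (log2 0.74, adjusted p = 0.0146). Within plates, Cacna1b was higher in Synpr-high cells in only 7 of 12 plates against Slc30a3-high cells and in 7 of 11 against the remaining cells. Cacna1e, the R-type pore gene, had 30.1 to 68.4 CPM in Synpr-high cells, 26.9 to 61.2 CPM in Slc30a3-high cells and 26.7 to 51.7 CPM in the remaining cells. Its difference from Slc30a3-high cells was 0.12 on the log2 scale (95% interval, -0.52 to 0.76).

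The low-threshold T-type channels, which open near rest and support burst firing, have 3 pore genes. Cacna1h had 0.31, 0, 0.90 and 1.02 CPM in Synpr-high cells, 14.8, 10.5, 7.42 and 9.57 CPM in Slc30a3-high cells and 9.90, 16.7, 11.8 and 10.2 CPM in the remaining cells. The Synpr-high values, which rest on 40 counts in 11 of 438 cells, did not overlap the others. The log2 difference was -4.11 ± 0.75 against Slc30a3-high cells (edgeR adjusted p = 0.00387) and -4.33 ± 0.76 against the remaining cells (adjusted p = 0.00232). Over cells without a bead label alone, those of the blindly sampled mouse included, it was not past the threshold (log2 -2.51 and -2.95, adjusted p = 0.146 and 0.0585). An exon of Tpsg1 lies on the opposite strand of a Cacna1h exon.

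Cacna1g, the T-type gene of thalamic relay and many cortical cells, differed in another direction. It had 63.2, 61.2, 51.3 and 68.6 CPM in Synpr-high cells and 49.5, 43.8, 66.0 and 66.3 CPM in Slc30a3-high cells, against 11.2, 27.3, 28.8 and 50.1 CPM in the remaining cells. The log2 difference between Synpr-high and remaining cells, 1.03 ± 0.32, was not past the threshold (edgeR adjusted p = 0.0596), and the ranges did not overlap. It passed in 5 of 19 alternatives. These were a block for mouse (adjusted p = 0.0164), DESeq2 (0.0137), a Slc30a3 limit of 50 CPM (0.0291), cells without a bead label (0.00218) and no plate 12 (0.0248). Cacna1i, the third T-type gene, had 6.24 to 14.8 CPM in Synpr-high cells and 13.04 to 22.6 CPM in Slc30a3-high cells, and was lower in Synpr-high cells in 4 of 4 mice (log2 -1.02 ± 0.42, adjusted p = 0.208).

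The L-type pore genes, whose channels link spikes to gene expression, were not past the threshold. Cacna1c had 7.68 to 13.8 CPM in Synpr-high cells, 5.94 to 11.8 CPM in Slc30a3-high cells and 1.98 to 8.53 CPM in the remaining cells. Cacna1d had 25.2 to 43.9 CPM, 13.4 to 40.0 CPM and 33.8 to 42.2 CPM.

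The auxiliary beta subunits bind the pore subunit inside the cell and bring it to the membrane. Cacnb4 had 331, 346, 275 and 335 CPM in Synpr-high cells, 308, 189, 194 and 168 CPM in Slc30a3-high cells and 194, 254, 198 and 184 CPM in the remaining cells. Synpr-high values lay above all those of the remaining cells, while the Slc30a3-high value of the blindly sampled mouse lay within the Synpr-high range. The log2 difference was 0.63 ± 0.18 against the remaining cells (edgeR adjusted p = 0.0423), which failed without projection mouse 1, 2 or 3 (log2 0.71, 0.69 and 0.56, adjusted p = 0.114, 0.143 and 0.219). It was also lost with RLE size factors in place of TMM (log2 0.61, adjusted p = 0.05), with thinned cells (0.57, 0.105) and over cells without a bead label (0.49, 0.079). Against Slc30a3-high cells it was 0.58 ± 0.18 (adjusted p = 0.0739), which passed with a block for mouse (adjusted p = 0.0213) and without the blindly sampled mouse (log2 0.78, adjusted p = 0.00646). In all it passed in 5 of 19 alternatives. These include DESeq2 (adjusted p = 0.0298), at least 2 counts of Snap25 and Slc17a7 (0.0441) and a Slc30a3 limit of 50 CPM (0.0458). An annotated transcript on the other strand, A430018G15Rik, overlaps a Cacnb4 exon.

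Cacnb3, the beta subunit gene typical of N-type channels, had 231, 171, 180.5 and 161 CPM in Synpr-high cells, above every value of Slc30a3-high cells (159, 105, 128 and 120 CPM) and of the remaining cells (102, 61.5, 141 and 98.4 CPM). The log2 difference was 0.88 ± 0.22 against the remaining cells (edgeR adjusted p = 0.0225), lost without the blindly sampled mouse or projection mouse 1 or 3 (log2 0.76, 0.75 and 0.93, adjusted p = 0.0784, 0.0893 and 0.120), with thinned cells (0.78, 0.068) and over cells without a bead label (0.74, 0.132). Against Slc30a3-high cells it was 0.54 ± 0.22 (adjusted p = 0.205, and 0.0456 with a block for mouse). Cacnb1 had 104 to 151 CPM in Synpr-high cells, 102.8 to 119 CPM in Slc30a3-high cells and 79.7 to 130 CPM in the remaining cells, and neither it nor Cacnb2 was past the threshold.

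The alpha2delta subunits sit outside the cell and raise the number of channels at the membrane. Cacna2d1, the target of gabapentin, separated the remaining cells from both others by its ranges. It had 148, 188, 152 and 154 CPM in Synpr-high cells and 176, 216, 163 and 180 CPM in Slc30a3-high cells, against 93.7, 140, 98.5 and 137 CPM in the remaining cells. Slc30a3-high cells were higher than the remaining cells in 4 of 4 mice, by 0.64 ± 0.16 on the log2 scale (edgeR adjusted p = 0.102, and 0.00958 with a block for mouse). This difference passed in 4 of 19 alternatives, also by DESeq2 (adjusted p = 0.0191), with thinned cells (0.0368) and over cells without a bead label (0.0449). Synpr-high cells were higher than the remaining cells by 0.45 ± 0.16 (adjusted p = 0.115, and 0.0144 with the block), which also passed with thinned cells. Cacna2d3 had 32.7 to 56.5 CPM in Synpr-high cells, 21.6 to 37.8 CPM in Slc30a3-high cells and 18.2 to 52.8 CPM in the remaining cells. It passed only with the block, in both comparisons of Synpr-high cells (adjusted p = 0.0488 and 0.0224).

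Most genes of the Cacng family encode TARPs, which carry AMPA receptors to the synapse rather than modulating calcium channels. Cacng3 had 343, 238, 278 and 258 CPM in Synpr-high cells and 296, 189, 193 and 213 CPM in Slc30a3-high cells. The remaining cells had 144, 183, 125 and 107 CPM, all under both other classes. The log2 difference between Synpr-high and remaining cells was 0.999 ± 0.19 (edgeR adjusted p = 0.00461), which failed without projection mouse 2 or 3 (log2 0.96 and 0.93, adjusted p = 0.0624 and 0.055). Within plates, Cacng3 was higher in Synpr-high than in remaining cells in 11 of 11, Cacnb4 in 11 of 11 and Cacnb3 in 10 of 11, and Cacna1h was lower in 10 of 11. Cacng2, or stargazin, had 44.9 to 67.2 CPM in Synpr-high cells, 32.7 to 70.8 CPM in Slc30a3-high cells and 33.8 to 63.4 CPM in the remaining cells. Cacng4 had 5.62 to 9.78 CPM in Synpr-high cells and 0 to 4.97 CPM in Slc30a3-high cells without overlap (log2 1.52 ± 0.77, edgeR adjusted p = 0.343), and no TARP gene other than Cacng3 was past the threshold.

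**Figure D3:**
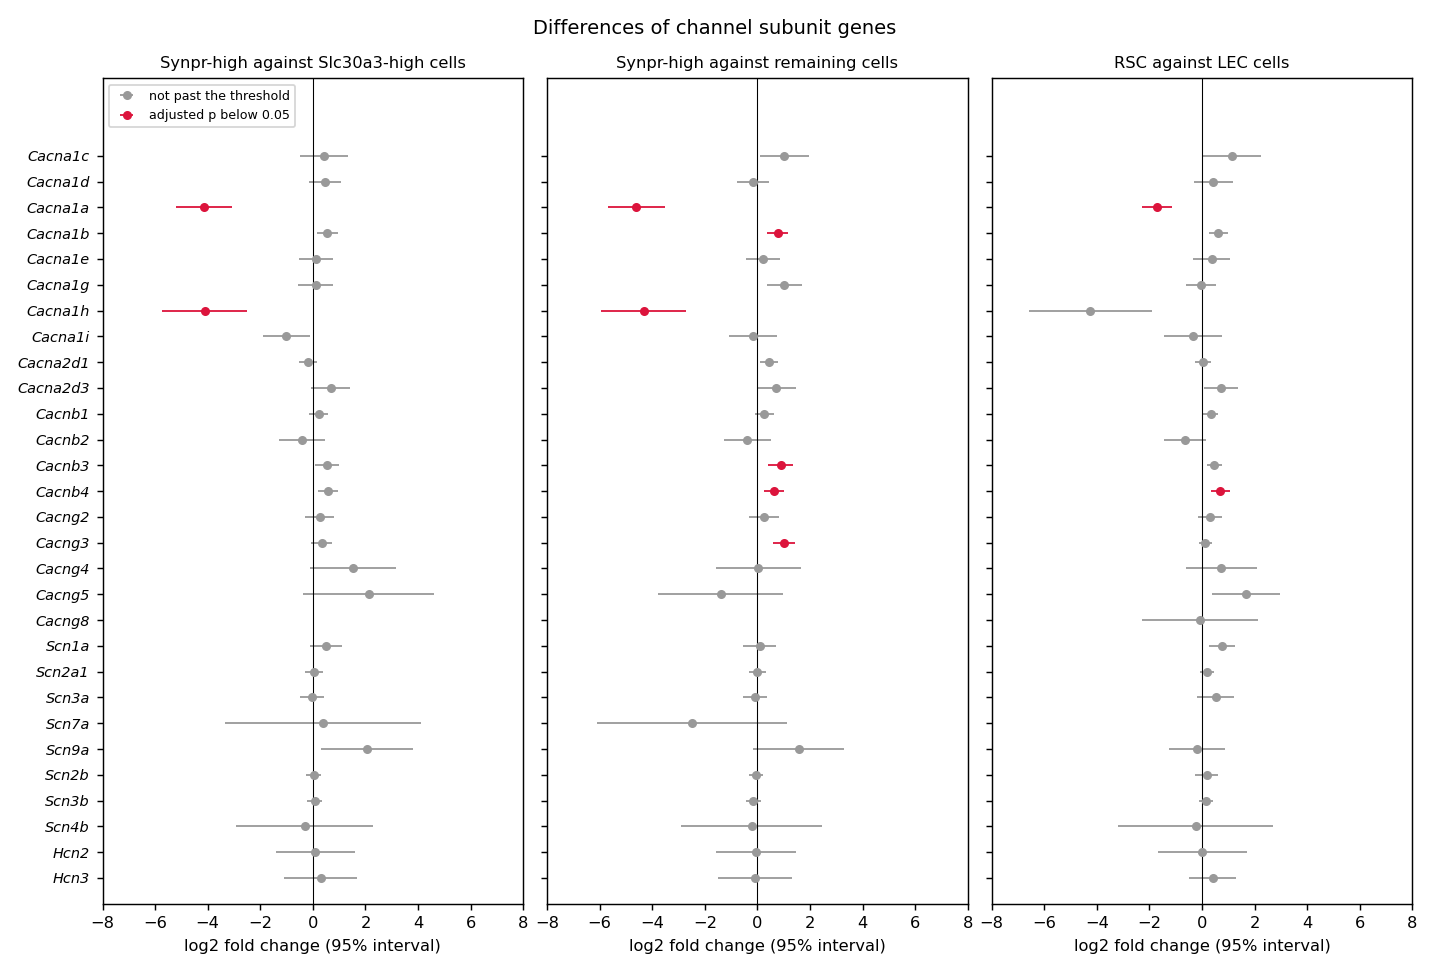
Log2 fold changes (horizontal axis) of channel genes, with 95% intervals from the edgeR fit, ordered by subunit group, in 3 comparisons. Red points had an adjusted p under 0.05. Cacna1a lies far to the left in both class comparisons, and intervals are wide for Hcn2, Hcn3, Scn4b, Scn7a and Cacng5.

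No sodium channel pore gene tested was past the threshold between the classes. Scn8a, another sodium channel pore gene, had no row in the count tables and was not tested. Scn2a1 had 525, 441, 470.5 and 407 CPM in Synpr-high cells, 555, 389, 454 and 391 CPM in Slc30a3-high cells and 609, 442, 388 and 406 CPM in the remaining cells. These groups overlapped, and the log2 differences of Synpr-high cells were 0.04 (95% interval, -0.30 to 0.38) and 0.00 (-0.34 to 0.34). Scn1a, known for its place in fast-spiking interneurons, had 44.5 to 53.3 CPM in Synpr-high cells and 21.3 to 45.8 CPM in Slc30a3-high cells, and it was higher in 4 of 4 mice (log2 0.50 ± 0.29, edgeR adjusted p = 0.451). Scn3a, mainly a gene of the developing brain, had 32.1 to 43.9 CPM and 32.6 to 48.2 CPM in these classes. Scn9a, a pore gene best known from nociceptors, had 13.5, 16.7, 16.8 and 10.3 CPM in Synpr-high cells and 0, 3.90, 7.16 and 2.03 CPM in Slc30a3-high cells. These ranges did not overlap, but the difference did not pass (adjusted p = 0.190, and 0.0472 with a block for mouse). DESeq2 also called it.

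The auxiliary beta subunits of sodium channels modulate gating and surface level, and Scn3b and Scn2b were not past the threshold between the classes. Scn3b had 745 to 920 CPM in Synpr-high cells and 710 to 956 CPM in Slc30a3-high cells (log2 0.07, 95% interval -0.22 to 0.36), and 757 to 1148 CPM in the remaining cells. Scn2b had 138 to 169 CPM, 137 to 176 CPM and 148 to 178 CPM (log2 0.03 between Synpr-high and Slc30a3-high cells, interval -0.25 to 0.31). For these genes, as for Scn2a1, the intervals leave out a change of 0.5 on the log2 scale in that comparison.

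Hcn2 and Hcn3 were at low levels and were not past the threshold between the classes. Hcn2 had 0.55 to 3.98 CPM in all sums, with a 95% interval of -1.42 to 1.61 for its log2 difference between Synpr-high and Slc30a3-high cells. Hcn3, whose exons overlap those of Pklr on the other strand, varied widely between mice. It had 21.5, 17.3, 11.4 and 10.3 CPM in Synpr-high cells, 2.61, 23.1, 9.28 and 12.7 CPM in Slc30a3-high cells and 36.3, 20.4, 3.64 and 6.47 CPM in the remaining cells. The highest and the lowest value both came from the blindly sampled mouse, and the interval of the same difference was -1.09 to 1.69.

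Of 31 genes whose products bind or place these channels, or serve AMPA receptors beside the TARPs, 26 were tested over the classes. Against Slc30a3-high cells, 3 were higher in Synpr-high cells and 1 was lower, where 6.71% of all genes tested were past the threshold. Shisa6 and Gsg1l, both AMPA receptor auxiliary proteins, had 34.5 to 59.2 CPM and 81.2 to 139 CPM in Synpr-high cells, against 1.06 to 3.04 CPM and 8.55 to 26.5 CPM in Slc30a3-high cells (edgeR adjusted p = 0.000728 and 0.000372). Nfasc, an adhesion gene of the axon initial segment, was higher (log2 0.90 ± 0.21, adjusted p = 0.0171, and 0.158 and 0.166 without projection mouse 2 or 3), and Fam155a, a subunit of the sodium leak channel NALCN, was lower (log2 -0.89 ± 0.14, adjusted p = 0.00139). Over cells without a bead label Fam155a was not past the threshold (log2 -0.72, adjusted p = 0.0919).

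Against the remaining cells, 3 of the 26 were higher in Synpr-high cells and 4 were lower, where 8.97% of all genes tested were past the threshold. Fgf13, an intracellular factor that binds sodium channels, was higher (log2 1.082 ± 0.26, edgeR adjusted p = 0.0166), as were Nfasc and Shisa6. Its relatives Fgf12 and Fgf14 were lower (log2 -0.81 ± 0.20 and -1.15 ± 0.31, adjusted p = 0.0204 and 0.0303). Rims2, an active zone protein that tethers calcium channels, was lower (log2 -1.501 ± 0.32, adjusted p = 0.00901), and so was Fam155a (log2 -0.99 ± 0.14, adjusted p = 0.000535). Without 1 of projection mice 1 to 3, Fgf13 and Fgf14 were not past the threshold (adjusted p = 0.0803 to 0.160 and 0.123 to 0.212), nor was Nfasc (0.0859 to 0.227). Fgf12 failed without mouse 1 or 2 (0.110 and 0.195) and Rims2 without mouse 2 (0.0924). With thinned cells Fgf12, Fgf13 and Nfasc were not past the threshold (adjusted p = 0.0957, 0.0971 and 0.0943), and over cells without a bead label Fgf13, Fgf14, Nfasc and Shisa6 were not (0.348, 0.274, 0.0782 and 0.0722). Fgf14 also failed without a filter on low counts (0.0565). Between Slc30a3-high and remaining cells 1 of 26, Gsg1l, was past the threshold and lower (log2 -2.02 ± 0.35, adjusted p = 0.0130, and 0.0536 to 0.209 without 1 of the projection mice). Of all genes tested, 0.778% were past it there.

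The second set of comparisons asked whether cells that project to RSC and to LEC differ. Each label of each projection mouse was 1 plate, apart from plate 12, which held 44 LEC and 34 RSC cells of projection mouse 3, so elsewhere plate and projection cannot be told apart. RSC cells were mostly Synpr-high (52 of 64, 56 of 70 and 105 of 113 cells), and LEC cells were mostly Slc30a3-high (41 of 80, 53 of 76 and 89 of 130 cells). Interneuron genes summed to 133, 6.93 and 199.7 CPM in RSC cells and under 1 CPM in LEC cells, and oligodendrocyte genes to 889 CPM in RSC cells of projection mouse 1, against 38.1 to 354 CPM in the other sums.

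RSC cells had less Cacna1a and more Cacnb4 than LEC cells. With these, 3 of 30 channel genes tested were past the threshold, where 3.83% of 13242 genes were (1.93% higher and 1.90% lower). Cacna1a had 13.1, 19.4 and 11.4 CPM in RSC cells of projection mice 1, 2 and 3, 51.0, 41.5 and 50.1 CPM in LEC cells and 77.7, 36.7 and 43.0 CPM in Unlabeled cells. RSC values lay under all others, with a log2 difference from LEC cells of -1.72 ± 0.26 (edgeR adjusted p = 0.00993). Cacnb4 had 338, 254 and 335 CPM against 225, 170 and 176 CPM (log2 0.70 ± 0.15, adjusted p = 0.0441). In Unlabeled cells Cacnb4 had 292, 263 and 263 CPM, above every LEC value and within the RSC range.

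**Figure D4:**
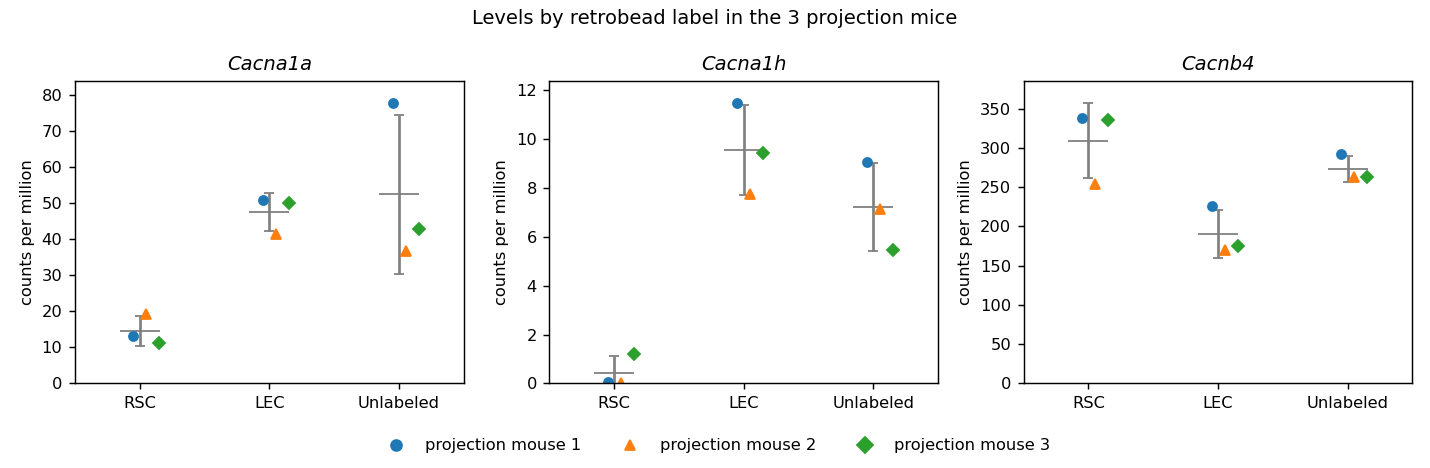
Levels of 3 channel genes (CPM, vertical axis) in RSC, LEC and Unlabeled cells. Points are the 3 projection mice, bars the means and whiskers 1 SD. RSC and LEC points do not overlap for Cacna1a, Cacna1h or Cacnb4.

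The RSC cells held almost no Cacna1h, with 0.08, 0 and 1.22 CPM against 11.5, 7.77 and 9.43 CPM in LEC cells, yet its log2 difference of -4.25 ± 1.04 missed the threshold (edgeR adjusted p = 0.0597). It was past it without a filter on low counts (adjusted p = 0.0398), with cells thinned to 20000 counts (log2 -3.44, adjusted p = 0.012) and by DESeq2 (log2 -4.31, adjusted p = 7.53e-05). These calls rest on 3 mice. Without projection mouse 1 or 3, 0 channel genes were past the threshold (Cacna1a, log2 -1.59 and -1.52, adjusted p = 0.071 and 0.186), and without projection mouse 2 Cacna1a alone was, with Cacnb4 at log2 0.74 (adjusted p = 0.137). Cacnb4 was also lost without plate 12 (log2 0.71, adjusted p = 0.0636). Within plate 12, RSC and LEC cells had 16.8 and 57.6 CPM of Cacna1a, 0.41 and 9.31 CPM of Cacna1h and 367 and 199 CPM of Cacnb4, in the same directions, with no replicate. Cacna1b, Cacnb3 and Scn1a also had higher values in RSC than in LEC cells of all 3 mice without overlap (adjusted p = 0.0666, 0.0738 and 0.102). Cacnb1 and Cacng5 did so too and were not past the threshold either. The share of all genes without overlap was not counted, so the lack of overlap is not taken as a difference of these genes. Of 27 partner genes tested, Gsg1l, Nfasc and Shisa6 were past the threshold (3.83% of all genes were), all higher in RSC cells (log2 2.38, 0.78 and 1.78, adjusted p = 0.00565, 0.0286 and 0.0136). Without projection mouse 2 these had adjusted p = 0.0901, 0.217 and 0.142, and without mouse 3, 0.0974, 0.239 and 0.196. Nfasc was also lost without plate 12 (log2 0.76, edgeR adjusted p = 0.0779).

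Projection and class were then fitted together over 12 sums of RSC or LEC and Synpr-high or Slc30a3-high cells, some of only 6 to 18 cells. With projection held, 3 of 29 channel genes differed between the classes, where 5.36% of 12328 genes did (3.12% higher and 2.24% lower). Cacna1a in Synpr-high cells was 4.57, 0 and 6.62 CPM with an RSC label and 0, 1.86 and 0 CPM with an LEC label. In Slc30a3-high cells it was 64.4, 110 and 117 CPM with an RSC label and 68.4, 43.6 and 60.6 CPM with an LEC label. It was thus lower in Synpr-high cells in 6 of 6 pairs (log2 -5.79 ± 0.81, edgeR adjusted p = 0.000727). Cacna1h was lower in 5 of 6 pairs, the other being 0 in both (log2 -4.76 ± 1.25, adjusted p = 0.0432, lost without any 1 of the mice, at 0.189, 0.138 and 0.212, without plate 12, at log2 -3.13 and 0.324, and with a Synpr limit of 100 CPM, at log2 -3.22 and 0.161).

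Cacnb4 was higher in Synpr-high cells in 6 of 6 pairs (log2 0.71 ± 0.14, edgeR adjusted p = 0.00725, and 0.144 and 0.112 without projection mouse 1 or 3, at log2 0.65 and 0.66). Its lowest levels, 159, 151 and 136 CPM, were in Slc30a3-high cells with an LEC label, while those with an RSC label had 245, 232 and 282 CPM, and Synpr-high cells had 242 to 370.5 CPM. Of 25 partner genes, Fgf13, Gsg1l and Shisa6 were higher and Fam155a was lower (adjusted p = 0.00205, 0.00544, 0.000140 and 0.00257), where 5.36% of all genes were past the threshold. Fgf13 and Gsg1l failed without projection mouse 1 or 2 (adjusted p = 0.0706 to 0.0871 and 0.0705 to 0.108), and Fam155a without mouse 2 or 3 (0.0627 and 0.0895). Fgf13 also failed without plate 12 (log2 0.99, edgeR adjusted p = 0.0914).

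**Figure D5:**
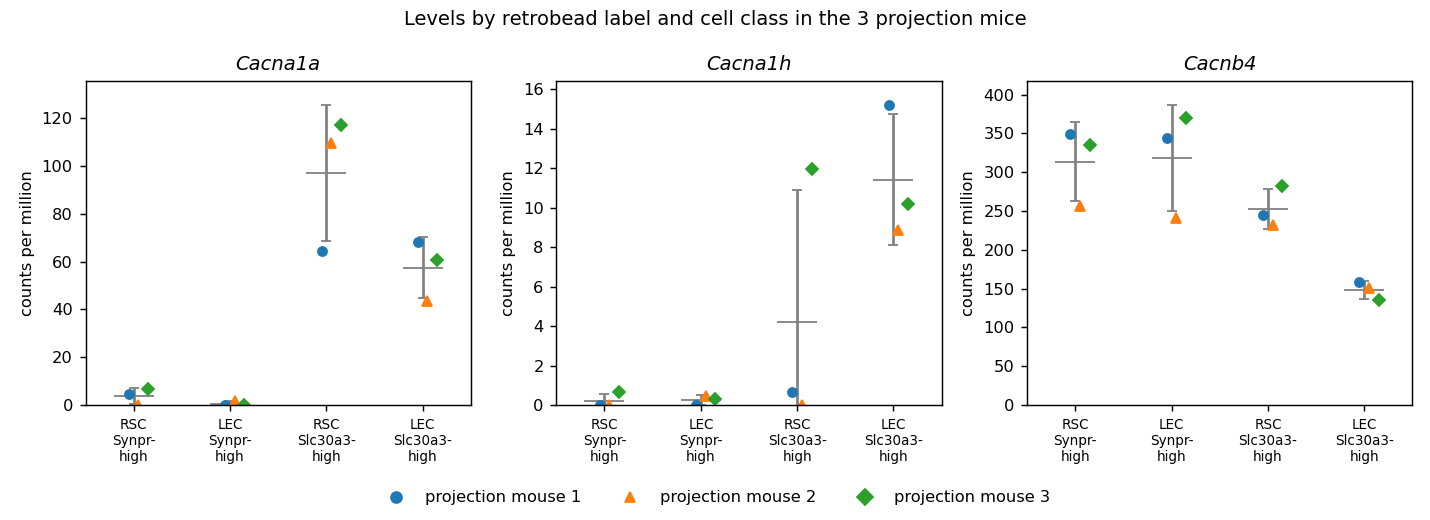
Levels of 3 channel genes (CPM, vertical axis) by retrobead label and class. Points are the 3 projection mice, bars the means and whiskers 1 SD, drawn down to 0 at most. Cacna1a lies under 7 CPM in all Synpr-high points and over 43 CPM in all Slc30a3-high points, and Cacnb4 is lowest in Slc30a3-high cells with an LEC label.

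With class held, RSC and LEC cells differed in 0 of 29 channel genes, where 0.00811% of 12328 genes did. At an unadjusted p under 0.05 there were 6 of 29, and 1185 of all 12328 genes, and DESeq2 called 1 channel gene, Cacna1c. Cacnb4 (log2 0.37 ± 0.13, edgeR adjusted p = 0.409), Scn1a (0.88 ± 0.31, adjusted p = 0.396) and Cacna1a (1.91 ± 0.78, adjusted p = 0.462) were not past the threshold. In the RSC Synpr-high cells of projection mouse 3, 95 of the 124 Cacna1a counts came from the 2 cells with Gad1 and Gad2, and without all such cells the difference was 1.45 ± 0.75 (adjusted p = 0.576). The test of whether the class difference changed with the label found 0 of 29 channel genes, the lowest adjusted p being 0.367 for Cacnb4, with 2 at an unadjusted p under 0.05. Of all 12328 genes, 8 were past the threshold in that test and 1151 had an unadjusted p under 0.05. Between RSC and LEC cells with class held, 0 of 25 partner genes were past the threshold and 3 had an unadjusted p under 0.05.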

How the data were processed

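The authors harvested single cells by hand, made barcoded 3′-end libraries by plate, tagged reads to barcodes and UMIs, aligned them with STAR and deposited whole-number counts per gene and cell that were not normalized. The processing notes name the build NCBIM37 and Seurat. The version of STAR and the annotation are not given in the sources used here. Counts were taken as reads, since the Methods give totals in reads, so several may come from 1 molecule. The exact intervals of cell shares cover counting error only, while the intervals of log2 differences come from the edgeR fit over mouse sums. The deposited metadata gave each cell's animal and label. Spike-in rows (89) were left out. The count tables share 16575 genes, and 6641 are only in that of the projection mice, so the blindly sampled mouse is at 0 for them. No doublet caller was run, since cells were picked singly.

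Counts were summed per mouse and group (at least 5 cells) and fitted with edgeR 4.0.16 in R 4.3.3 (TMM, filterByExpr, quasi-likelihood F test, p adjusted by Benjamini-Hochberg over all genes tested, threshold 0.05), with DESeq2 1.42.0 as an alternative. The 3 classes of 4 mice were 1 fit, RSC and LEC sums of 3 mice another, and the 4 groups of label and class 1 more. Levels are CPM from the TMM-scaled totals of the genes tested in each fit (plate values, plain CPM). The tests were tried on simulated data. Named genes were those past the threshold in any comparison and up to 3 of each subunit group with the highest mean CPM. Some genes are not reported here, though counts of channel genes include them. The members and lists were chosen with earlier results of these data known. Python 3.11.15 with numpy 2.4.6, pandas 2.3.3 and scipy 1.17.1 was used for sums, thinning and intervals.

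Since 1 animal gave several sums, their pairing was tested. Deviations from group means correlated across genes with a median of 0.138 over 12 same-mouse pairs of class sums (0.118 to 0.498), against -0.0645 for other pairs, 0.0438 over 3 pairs of label sums and 0.0312 over 18 pairs of label and class sums. A fit that blocks on mouse was an alternative, and its value stands beside a result where it changed the call.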

Additional observations from a re-analysis of the deposited data

Results flagged for a closer look

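The level of Cacna2d1 in Synpr-high cells of projection mouse 1, 187.6 CPM, stood far from those of the other 3 mice, at 148, 152 and 154 CPM. Cacna1s, the muscle L-type pore gene, had 2.85 CPM in Slc30a3-high cells of projection mouse 3 and 0 in those of the other mice, and these counts came from 2 cells, with 3 cells in all having a count. These 2 of 77 groups of 4 mice were picked out by the distance of 1 mouse from the others relative to the range, and chance picks about 1 in 20.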

How the results depend on the processing

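The results followed under alternatives were 43, namely channel and partner genes in a comparison where they passed the threshold, and some others chosen by hand. Of their 758 values, 656 stayed on their side of the threshold, 82 lost and 20 gained it, and 0 changed direction. Most were picked for their difference, so the 0 does not speak for the other named genes. Cacna1a kept its call in all 19 alternatives against Slc30a3-high cells and in all 19 against the remaining cells. The following are counts of channel genes past the threshold. DESeq2 called 5 between Synpr-high and Slc30a3-high cells, 2 between Slc30a3-high and remaining cells, 7 between RSC and LEC cells and 1 between these within classes. The replicate block, which pairs sums of a mouse, gave 7, 1, 2 and 0 in that order, 10 between Synpr-high and remaining cells and 3 between classes within projections. Thinning to 20000 counts gave 1 between Slc30a3-high and remaining cells and 6 between RSC and LEC cells, and cells without a label gave 3 in the former. Leaving out 1 mouse gave 2 to 5 for Synpr-high against Slc30a3-high cells, 3 to 6 against remaining cells, 0 to 1 for RSC against LEC cells and 1 to 2 for the classes within projections. Over all genes, the higher and lower calls were 39 and 63 between Slc30a3-high and remaining cells (146 and 228 by DESeq2, 125 and 142 with the block), 255 and 252 between RSC and LEC cells (560 and 561 by DESeq2), 1 and 0 within classes (87 and 62 by DESeq2), 385 and 276 between classes within projections (708 and 495 by DESeq2), 430 and 449 between Synpr-high and Slc30a3-high cells (637 and 689 by DESeq2, 737 and 736 with the block) and 555 and 621 between Synpr-high and remaining cells (909 and 914 with the block). Leaving out 1 mouse gave, in the same order, 5 to 33 and 7 to 43, 11 to 180 and 10 to 164, 0 to 2 and 0 to 1, 128 to 181 and 79 to 110, 162 to 504 and 189 to 544, and 241 to 624 and 261 to 690. The counts between RSC and LEC cells were 22 and 24 without projection mouse 2 and 11 and 10 without projection mouse 3, so the share of all genes given there rests on these mice. The cause was not tested. Hcn2 and Hcn3 had wide intervals.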
